A study of Mus musculus with 16 samples.

Results

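The 56 genes described here encode the machinery of the endoplasmic reticulum (ER) through which secreted and membrane proteins pass, together with the sensors and factors of the unfolded protein response. They were chosen by symbol, which 57 gene IDs of the 53342 in the deposited tables carry, because Srp54a stands on a pair of IDs. The second of those IDs is named Srp54b in GENCODE M21 and is called so below; both are near-identical copies, so the division of reads between them is uncertain. The list of 91 other pathway genes used below also holds the symbol Srp54b, which there stands for a separate ID. All 57 passed the filter on low counts. RNA came from sorted bone marrow LSK cells (lineage-negative, Sca1+, c-Kit+), the fraction that holds blood stem and multipotent progenitor cells, of mice aged 8 to 14 weeks on the C57BL/6J background. The mutant mice, Gata2 +9.5(Ets)-/-, carry a changed Ets motif in the +9.5 enhancer, an intronic element of the gene for the haematopoietic transcription factor GATA2. The groups were 3 mutant and 3 wild-type (WT) samples taken 10 days after 5-fluorouracil (5-FU, 250 mg/kg), a drug that kills dividing cells, and 5 mutant and 5 WT samples taken 10 days after PBS. The gate excluded cells positive for B220, CD3, CD4, CD5 or CD8, and each replicate held 3000 to 10000 cells. The labels do not say whether replicates were separate mice, so p-values measure the spread between these samples.

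A protein bound for secretion is recognised by the signal recognition particle (SRP) as its signal peptide leaves the ribosome, enters the ER through the Sec61 translocon, loses the signal peptide to the signal peptidase and receives N-linked sugars from the oligosaccharyltransferase. Chaperones and disulfide isomerases fold it, cargo receptors and COPII coats export it, and ER-associated degradation (ERAD) returns misfolded protein to the cytosol. When unfolded protein accumulates, the sensors IRE1 (Ern1), ATF6 and PERK raise the level of these genes, in part through XBP1 and ATF4. Plasma cells, which secrete antibody, are known for very high levels of this machinery. Jchain, which encodes the joining chain of IgM and IgA, serves here as the gauge of plasma-cell RNA.

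One known route from the stress response to these genes is the ER stress response element, a pair of boxes (CCAAT and CCACG) spaced by 9 bases that binds NF-Y with ATF6 or XBP1. RefSeq promoters on GRCm38.p6 were found for 43 of the 56 symbols. Atf6, Derl1, Hyou1, Lman1, Manf, Ostc, Sec11c, Sec61a1, Spcs3, Srp19, Srp68, Ssr2 and Tram1 were without one. In the 250 bases before the start, on either strand, this element (CCAAT, any 9 bases, CCACG) was found in 8 of 43 member promoters (18.6%), against 35 of 27025 promoters of all genes (0.13%). Its variant ERSE-II (ATTGG, any 1 base, CCACG) was found in Herpud1 among the members (2.33%), against 10 promoters in all (0.037%). The core of the XBP1 element (TGACG followed directly by TGG) was found in Sec24d (2.33%), against 163 in all (0.603%). The box CCACG alone, which lies within each of the first pair of motifs, was found in 27 member promoters (62.8%), against 8368 in all (31%). The sites are shown because their letters recur across chaperone and degradation genes that behaved differently in these libraries. Each is printed 5′ to 3′ on the strand that carries CCAAT (or ATTGG), with 5 flanking bases and the boxes in capitals.
Hspa5, chr2:34772020-34772048, plus strand: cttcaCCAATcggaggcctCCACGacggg
Hsp90b1, chr10:86705528-86705556, plus strand: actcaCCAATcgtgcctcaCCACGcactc
Hsp90b1, chr10:86705633-86705661, minus strand: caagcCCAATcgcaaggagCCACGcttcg
Calr, chr8:84847070-84847098, plus strand: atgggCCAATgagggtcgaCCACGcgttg
Canx, chr11:50325795-50325823, minus strand: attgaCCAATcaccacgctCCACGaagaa
Pdia6, chr12:17266486-17266514, plus strand: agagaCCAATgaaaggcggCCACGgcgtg
Creld2, chr15:88819515-88819543, minus strand: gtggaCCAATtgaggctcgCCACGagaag
Dnajc3, chr14:118937822-118937850, plus strand: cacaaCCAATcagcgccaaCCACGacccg
Syvn1, chr19:6046527-6046555, plus strand: cgcaaCCAATcggcggtagCCACGggaac
Herpud1, chr8:94386372-94386392, plus strand: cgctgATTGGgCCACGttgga
The letters are a description of these windows and say nothing of which factor was bound.

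Libraries held 19.37 to 28.88 expected counts in units of 1e6. Immunoglobulin genes took 5.69 to 26.6% of the counts in mutant 5-FU libraries, 0.0392 to 0.332% in WT 5-FU libraries, 3.67 to 50.2% in mutant PBS libraries and 6.37 to 44.2% in WT PBS libraries. Jchain stood at 17019, 8808 and 1671 CPM (counts scaled to library size by TMM) in mutant 5-FU libraries, against 33.2, 8.54 and 91.5 CPM in WT 5-FU libraries. It stood at 14957, 24365, 68575, 4444 and 1216 CPM in mutant PBS libraries, against 18993, 23682, 60552, 9800 and 2592 CPM in WT PBS libraries. The 3 WT 5-FU libraries lay below every other library, and the other groups overlapped. Jchain was lower after 5-FU than after PBS in WT cells, with a log2 fold change of -9.03 ± 1.85 (SE; edgeR quasi-likelihood test, Benjamini-Hochberg adjusted p = 0.00866). It was higher in mutant than in WT cells after 5-FU, by 7.69 ± 1.78 (edgeR, adjusted p = 0.0451). For 5-FU against PBS in the mutant the log2 fold change was -1.31 ± 1.25 (edgeR, adjusted p = 0.756), and for mutant against WT after PBS it was -0.03 ± 1.03 (edgeR, adjusted p = 1). The difference between the responses of the 2 genotypes, 7.72 ± 1.94, did not pass (edgeR, adjusted p = 0.104).

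Per transcript, the 57 genes together made up 0.874 to 1.02% of all TPM (length-scaled transcript abundance) in mutant 5-FU libraries, 1.09 to 1.23% in WT 5-FU libraries, 0.548 to 0.962% in mutant PBS libraries and 0.592 to 1.07% in WT PBS libraries. The order of levels differed between groups. In mutant 5-FU libraries the highest median levels were those of Sec11c, the catalytic subunit of the signal peptidase (483 TPM, range 474 to 654), of Calr, the lectin chaperone calreticulin (464 TPM, 312 to 598), and of Hspa5, the main ER Hsp70 chaperone BiP (416 TPM, 345 to 506). In WT 5-FU libraries the order was led by Calr (826 TPM, 789 to 1007), Hspa5 (638 TPM, 592 to 733) and Pdia3, an isomerase of glycoproteins (512 TPM, 501 to 555). The ranges of Calr, Hspa5 and Pdia3 did not overlap there, whereas those of Sec11c and Calr did in mutant 5-FU libraries. After PBS the small signal peptidase subunits led: Sec11c and Spcs1 had medians of 396 and 394 TPM in mutant libraries, and Spcs1 and Sec11c had medians of 483 and 445 TPM in WT libraries, with overlapping ranges. The lowest level was that of Edem3, a mannosidase-like ERAD protein, in mutant 5-FU (3.90 TPM), mutant PBS (2.19 TPM) and WT PBS libraries (3.02 TPM), and that of Sec61g, the gamma subunit of the translocon, in WT 5-FU libraries (6.22 TPM). Ern1 and Atf6, a pair of stress sensors, were among the 5 lowest members in every group. Fewer cells of a type and less RNA per cell cannot be told apart in such bulk samples.

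**Figure D1:**
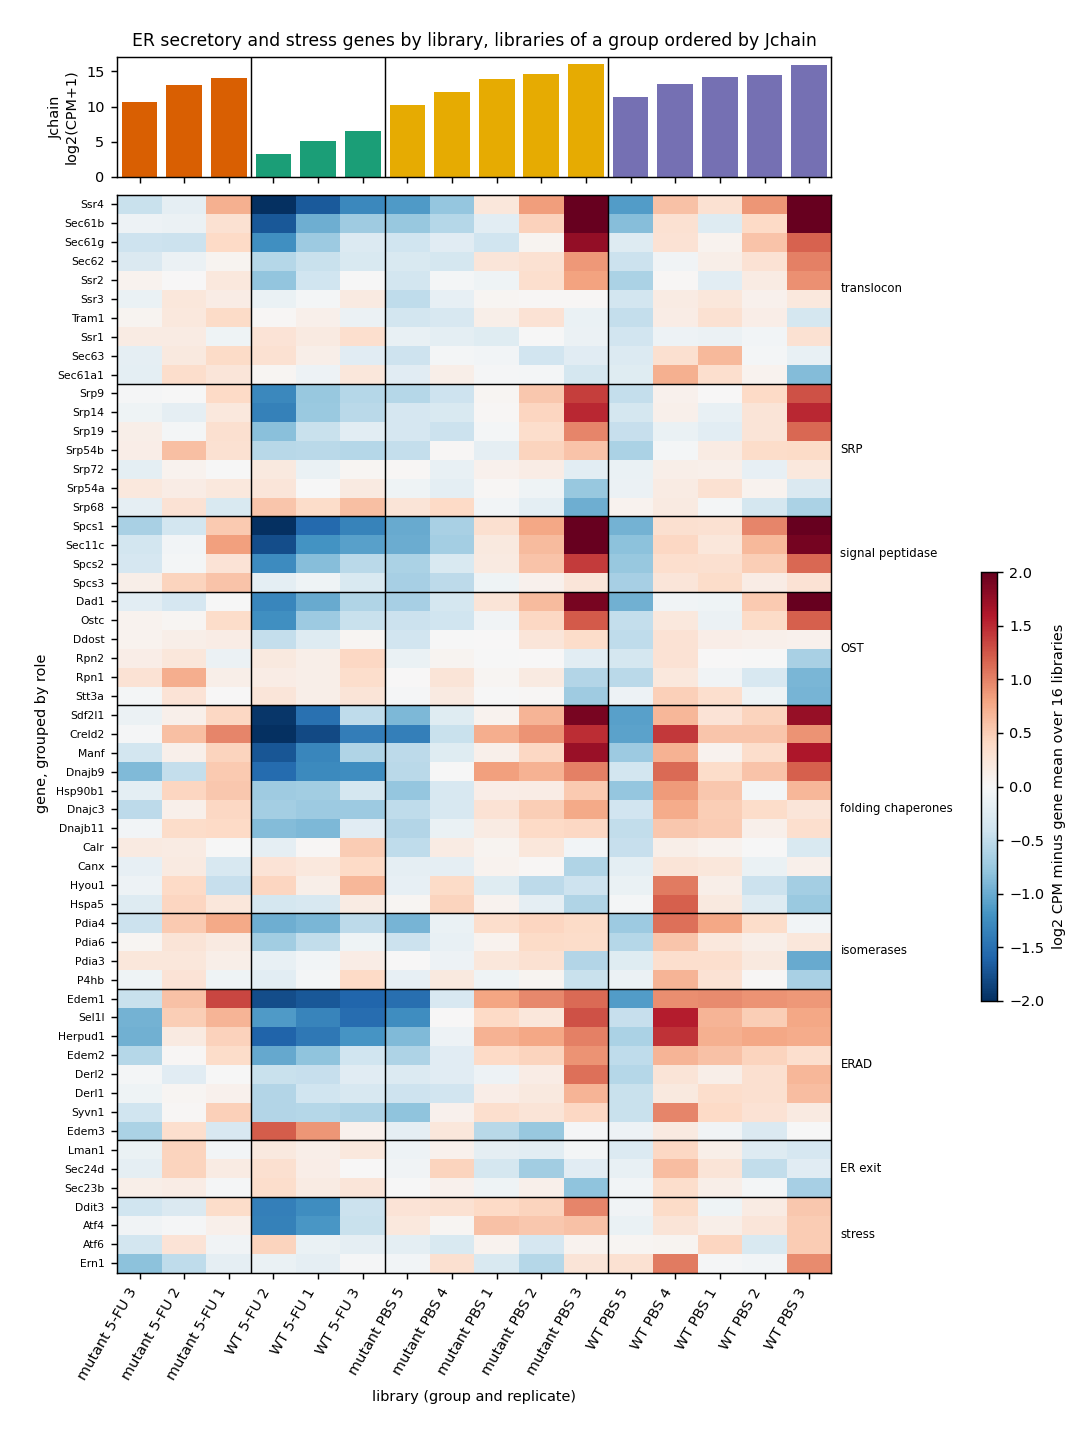
Level of each member (rows, by role) in each library (columns), as log2 CPM minus the gene's mean over 16 libraries, with Jchain above as log2(CPM+1). The WT 5-FU libraries, with the lowest Jchain, are blue for Ssr4, Spcs1, Sdf2l1, Creld2, Edem1, Sel1l and Herpud1, and replicates 3 of both PBS groups, with the highest Jchain, are red for the small translocon, SRP and signal peptidase genes.

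In WT cells, stress, co-chaperone and degradation genes were among the members lower after 5-FU. On TMM-scaled counts 12 of 57 members (21.1%) were lower and 1 (1.75%) was higher, against 9.31% lower and 5.55% higher among all 16482 genes tested (edgeR quasi-likelihood test over all genes, Benjamini-Hochberg threshold 0.05). The median log2 fold change was -0.67 for the members and -0.11 for all genes. The 12 were 5 of 11 chaperones and co-chaperones, 5 of 8 ERAD genes and 2 of 4 stress sensors and factors. No member of the translocon, SRP, signal peptidase, oligosaccharyltransferase, isomerase or ER exit lists passed by edgeR, and roles were not tested against each other. DESeq2 called 25 members lower (43.9%, against 17% of all genes) and 1 higher (1.75%, against 10.8%), and the 25 included Ssr4, Spcs1, Sec11c, Dad1, Srp14 and Hsp90b1. In CPM, 15 members (26.3%) were lower in all 3 WT 5-FU libraries than in all 5 WT PBS libraries and 1 (1.75%), Srp68, was higher in all, against 15.8% and 16.0% of all genes. The scale matters here: in log2 TPM the median of all genes was 1.01 higher after 5-FU and that of the members 0.79 higher, and limma-trend called 21 members higher (36.8%, against 42.7% of all genes) and 3 lower (5.26%, against 3.48%).

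Among the stress factors, Atf4, the transcription factor of the integrated stress response, had 56.4, 49.3 and 93.1 CPM in WT 5-FU libraries, against 138, 150, 182, 153 and 117 CPM in WT PBS libraries. All 3 WT 5-FU libraries were below all 5 WT PBS libraries, and the log2 fold change was -1.16 ± 0.23 (SE; edgeR, adjusted p = 0.00477). Ddit3, which encodes the pro-apoptotic factor CHOP downstream of ATF4, had 7.56, 6.84 and 14.0 CPM in WT 5-FU libraries, against 18.1, 21.6, 28.3, 25.3 and 18.3 CPM in WT PBS libraries. It was likewise lower in each, by -1.24 ± 0.29 (edgeR, adjusted p = 0.0126). In log2 TPM both had positive differences, 0.30 for Atf4 and 0.19 for Ddit3, below the all-gene median of 1.01. The sensors Ern1 (-0.66 ± 0.30) and Atf6 (-0.10 ± 0.23) did not pass.

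Among the co-chaperones, Creld2, an ER-resident disulfide isomerase induced by stress, had 47.2, 41.4 and 63.6 CPM in WT 5-FU libraries, against 247, 246, 314, 446 and 79.0 CPM in WT PBS libraries. The groups did not overlap, although WT PBS replicate 5 came close, and the log2 fold change was -2.39 ± 0.59 (edgeR, adjusted p = 0.0166). Creld2 carried one of the paired boxes, on the minus strand of its promoter. Dnajb9, which encodes the BiP partner ERdj4, had 11.2, 9.13 and 11.5 CPM in WT 5-FU libraries, against 36.9, 42.9, 66.5, 63.9 and 21.8 CPM in WT PBS libraries. The groups did not overlap, and the log2 fold change was -2.13 ± 0.44 (edgeR, adjusted p = 0.00651). Manf, a secreted factor released under ER stress, had 60.2, 45.2 and 98.7 CPM in WT 5-FU libraries, against 159, 192, 467, 244 and 90.6 CPM in WT PBS libraries. Here 1 WT 5-FU library lay above the lowest WT PBS library, and the log2 fold change was -1.76 ± 0.55 (edgeR, adjusted p = 0.0441). Dnajc3 (-1.06 ± 0.31, adjusted p = 0.035) and Dnajb11 (-0.88 ± 0.28, adjusted p = 0.0469), which encode J-domain partners of BiP, also fell by edgeR, with positive differences of 0.47 each in log2 TPM, below the all-gene median.

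The chaperones those proteins serve did not pass. Hspa5 had 612, 598 and 859 CPM in WT 5-FU libraries, against 874, 641, 457, 1758 and 746 CPM in WT PBS libraries. The groups overlapped, WT PBS replicate 4 stood apart above the rest, and the log2 fold change was -0.38 ± 0.36 (edgeR, adjusted p = 0.45); it was 0.04 without that library and 1.41 in TPM. Calr (0.25 ± 0.22), Canx, the membrane-bound lectin chaperone (0.24 ± 0.20), and Hsp90b1, the ER Hsp90 (-0.93 ± 0.35), did not pass either, and each has the paired boxes printed above. Of the 8 genes with them, Creld2, Dnajc3 and Syvn1 passed.

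Among the ERAD genes, Edem1, which extracts misfolded glycoproteins from the folding cycle, had 79.6, 75.8 and 85.9 CPM in WT 5-FU libraries, against 501, 485, 476, 496 and 119 CPM in WT PBS libraries. The groups did not overlap, 4 WT PBS libraries stood close together, and the log2 fold change was -2.37 ± 0.59 (edgeR, adjusted p = 0.0171). Herpud1, which assembles the retrotranslocation complex, had 86.4, 76.0 and 103 CPM in WT 5-FU libraries, against 383, 402, 393, 640 and 151 CPM in WT PBS libraries. It was lower in each, with a log2 fold change of -2.16 ± 0.48 (edgeR, adjusted p = 0.00984). Sel1l, the scaffold of the ubiquitin ligase of that complex, had 102, 117 and 88.7 CPM in WT 5-FU libraries, against 413, 361, 440, 763 and 187 CPM in WT PBS libraries. It was also lower in each, by -2.08 ± 0.53 (edgeR, adjusted p = 0.0185). Edem2 (-1.08 ± 0.35, adjusted p = 0.0466) and Syvn1, the ligase itself (-0.96 ± 0.31, adjusted p = 0.0488), fell by edgeR, with differences of 0.45 and 0.46 in log2 TPM, below the all-gene median. Edem3 was the member that rose: it had 47.6, 60.2 and 26.9 CPM in WT 5-FU libraries, against 24.0, 20.6, 25.3, 28.8 and 23.5 CPM in WT PBS libraries. WT 5-FU replicate 3 overlapped the WT PBS libraries, and the log2 fold change was 0.88 ± 0.28 (edgeR, adjusted p = 0.0476).

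**Figure D2:**
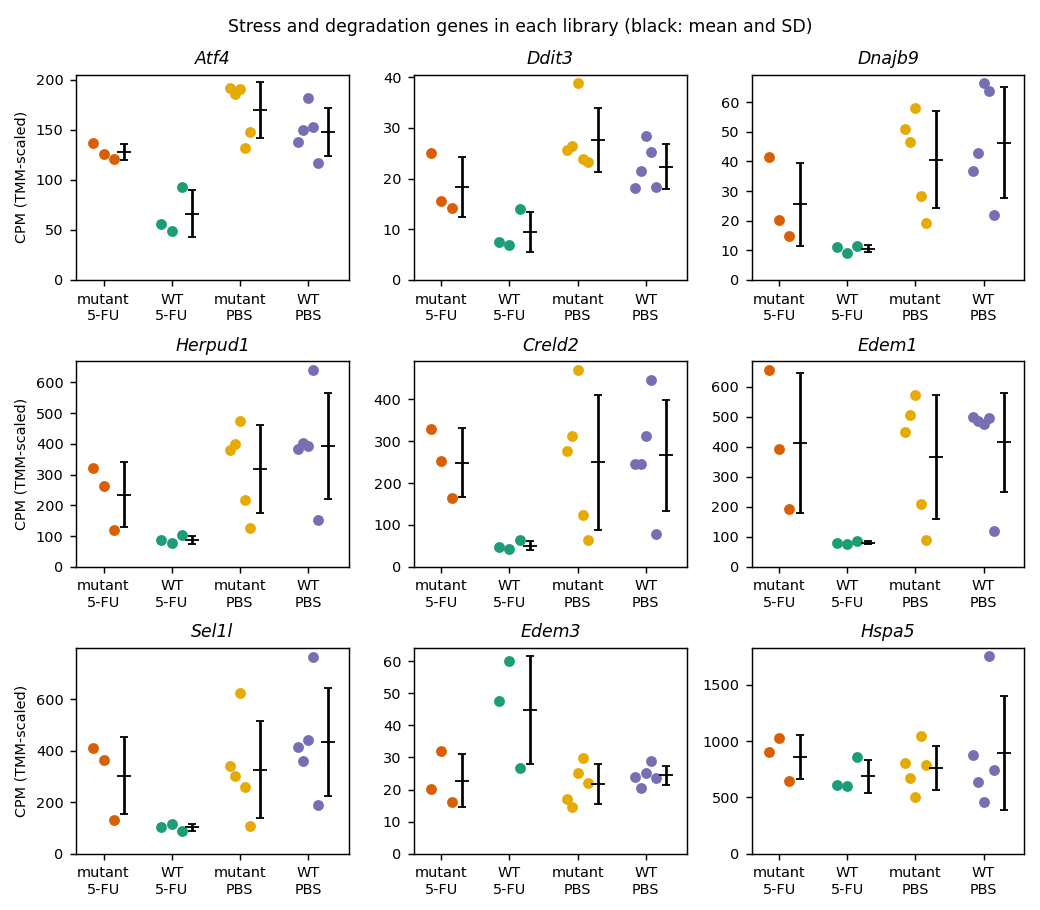
CPM (TMM-scaled) of 9 stress, co-chaperone and degradation genes in each library, one point per library, with the mean and SD in black. For Edem1, WT 5-FU libraries sit between 75.8 and 85.9 CPM and mutant 5-FU libraries between 191 and 656 CPM; Hspa5 overlaps across all 4 groups.

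Several genes of the secretory entry route had larger changes with larger errors and lay just outside the threshold. Spcs1, a signal peptidase subunit, had a log2 fold change of -2.88 ± 0.93 (edgeR, adjusted p = 0.0502) and Ssr4, the delta subunit of the translocon-associated protein complex, of -2.88 ± 0.93 (edgeR, adjusted p = 0.0504). Of the 91 other genes of the pathway, 12 were lower and 5 higher, against 9.31% lower and 5.55% higher among all genes. Xbp1 is counted both here and among the plasma-cell markers below. The lower ones included Derl3, a plasma-cell-rich derlin (-7.11 ± 1.48), Kdelr3, a receptor that returns chaperones to the ER (-5.99 ± 0.93), Xbp1 (-3.08 ± 0.77) and Txndc5, an isomerase (-2.76 ± 0.60). The higher ones included Dnajc10, an ER reductase (0.94 ± 0.20), and Uggt1, the glucosyltransferase that tests glycoprotein folding (0.84 ± 0.21). Xbp1 had 127, 112 and 262 CPM in WT 5-FU libraries, against 1492, 1774, 2151, 1306 and 331 CPM in WT PBS libraries, with no overlap.

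Markers of other cells moved with these genes. Of 10 plasma-cell markers 9 were lower after 5-FU in WT cells, and their summed level was 349 to 2251 CPM in WT 5-FU libraries, against 36200 to 580100 CPM in WT PBS libraries. Of 10 B-cell markers 9 were lower (summed 22.5 to 35.0 CPM in WT 5-FU libraries, against 128 to 804 CPM in WT PBS libraries), and Pax5 was at 0 in all 3 WT 5-FU libraries. Of 10 granulocyte and monocyte markers 5 were lower (369 to 3616 CPM in WT 5-FU libraries, against 6674 to 26250 CPM in WT PBS libraries). Lower levels were also called for 7 of 10 T and NK markers (138 to 226 CPM in WT 5-FU libraries, against 174 to 563 CPM in WT PBS libraries; Cd3e, Cd3g and Gzma were at 0 in WT 5-FU libraries) and 5 of 8 erythroid markers (56.4 to 86.9 CPM in WT 5-FU libraries, against 352 to 1115 CPM in WT PBS libraries). Of 10 LSK and stem-cell markers 1 was lower, Flt3, and 1 higher, Mecom (1841 to 2209 CPM in WT 5-FU libraries, against 2822 to 5176 CPM in WT PBS libraries). With log2 Jchain as a covariate no member passed by edgeR, and 21 (36.8%) had an unadjusted p under 0.05, against 18.9% of all genes. The median of the members was then 0.65, and of the 12 falls only Atf4 kept its sign (-0.15). The WT 5-FU libraries lie far below the Jchain range of the WT PBS libraries, so that fit extrapolates. The part of each marker list in the falls was not tested.

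Counts of calls differed between sets of libraries. Sample codes share a prefix for WT 5-FU replicate 3 and WT PBS replicates 4 and 5; 1 library thus stood against 2 there, and the spread came from all groups and prefixes with more than 1 library. Within that prefix the median of the members was -0.28, and Sel1l, Herpud1 and Edem1 had log2 fold changes of -2.42, -1.95 and -1.84. For these genes WT PBS replicate 4 lay far above WT PBS replicate 5, by the levels given above. In a fit of log2 CPM on genotype and Jchain over the PBS libraries, 53 of 57 members lay above the fit in WT PBS replicate 4. With the writing of the code (a leading zero or none) as a covariate 4 members passed, all lower (7.02%, against 4.77% of all genes), and the median was -0.29. Every PBS library with a leading zero held more Jchain than every one without, so that covariate and Jchain cannot be told apart there. Leaving out WT 5-FU replicate 2 left 1 member past the threshold, lower (1.75%, against 2.21% of all genes). Leaving out WT 5-FU replicate 1 left 2, both lower (3.51%, against 2.77%). Without mutant PBS replicate 3, 27 passed (43.9% lower and 3.51% higher, against 14.2% and 9.78%). Without WT PBS replicate 5, 25 passed, all lower (43.9%, against 11.8%).

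In the mutant, 5-FU did not move any of these genes past the threshold. None of 57 members (0%) passed by edgeR, against 0.837% higher and 1.36% lower among all genes. By that test 1 member (1.75%) had an unadjusted p under 0.05, against 13.1% of all genes, and DESeq2 also called 0. The median log2 fold change was 0.00 for the members, and 28 of 57 were above 0. Spcs3, a signal peptidase subunit, had 379, 344 and 276 CPM in mutant 5-FU libraries, against 240, 269, 299, 176 and 159 CPM in mutant PBS libraries, a difference of 0.54 ± 0.25 (edgeR, adjusted p = 0.361). Ddit3 had 25.1, 15.6 and 14.3 CPM in mutant 5-FU libraries, against 25.6, 26.3, 38.8, 23.9 and 23.3 CPM in mutant PBS libraries (-0.59 ± 0.28; edgeR, adjusted p = 0.388). Srp54a, an SRP GTPase, was the 1 member (1.75%) higher in all mutant 5-FU libraries than in all mutant PBS libraries, against 5.05% of all genes, and none (0%) was lower in all, against 4.94% (0.39 ± 0.18; edgeR, adjusted p = 0.388). Hspa5 differed by 0.17 ± 0.35. Sample codes of all 3 mutant 5-FU libraries share a prefix with mutant PBS replicates 1 and 2. Within it no member passed by edgeR, and 4 (7.02%) had an unadjusted p under 0.05, against 20.9% of all genes. Lower were Atf4 (-0.56 ± 0.15, adjusted p = 0.0551), Dad1 (-0.64 ± 0.26) and Sec62 (-0.39 ± 0.16), and Sec24d was higher (0.70 ± 0.30). Within the shared prefix of WT samples, 1 library against 2, Atf4 was at -0.53. Of the 91 other pathway genes, 0 passed by edgeR and 6 had an unadjusted p under 0.05, against 13.1% of all genes.

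The direct test of whether the genotypes responded differently to 5-FU passed for none of the members. Among all genes 0.558% were higher and 0.0303% lower by this test. The largest differences in response were those of Edem1 (2.54 ± 0.77; edgeR, adjusted p = 0.17), Creld2 (2.39 ± 0.77; edgeR, adjusted p = 0.212) and Sel1l (1.97 ± 0.69; edgeR, adjusted p = 0.264), and that of Hspa5 was 0.54 ± 0.50. In all, 12 members (21.1%) had an unadjusted p under 0.05 by edgeR, against 10.8% of all genes. DESeq2 called 1 (1.75%), Edem1, higher, against 2.98% higher among all genes. Of the other pathway genes Kdelr3 passed, at 6.27 ± 1.08 (edgeR, adjusted p = 0.0146); it had 6.10, 3.46 and 2.40 CPM in mutant 5-FU libraries and at most 0.122 CPM in WT 5-FU libraries, where counts are few.

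**Figure D3:**
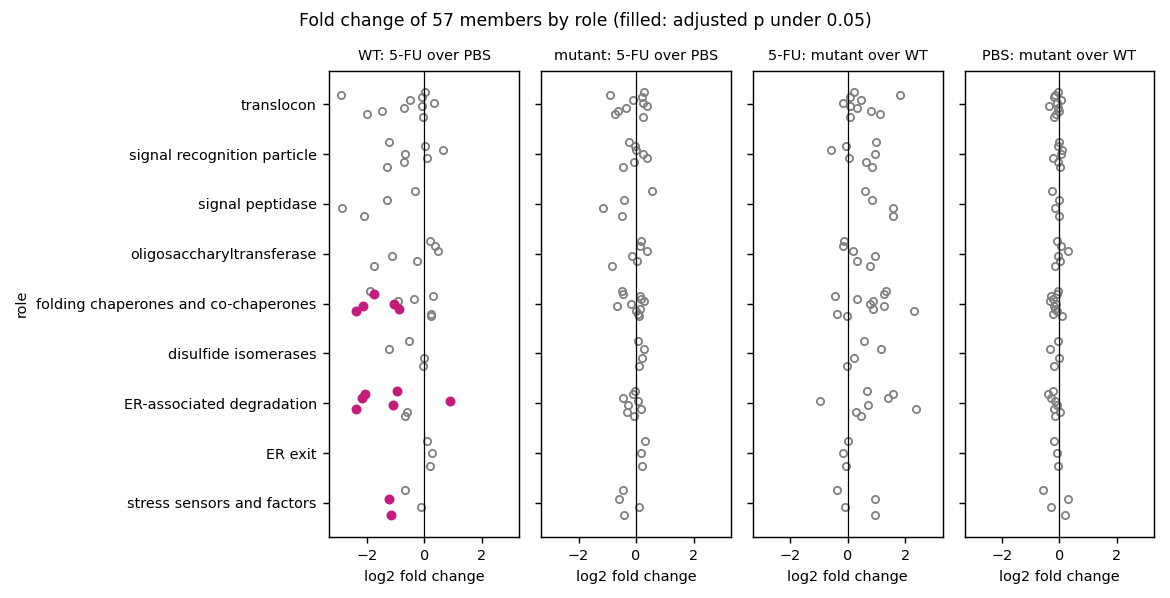
Log2 fold change (TMM-scaled counts) of each of 57 members by role in 4 comparisons, with members past the adjusted threshold filled. Filled points, 12 lower and 1 higher, appear in the panel of 5-FU over PBS in WT cells; the signal peptidase genes lie above 0 in the panel of mutant over WT after 5-FU, with none filled.

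After 5-FU, none of 57 members (0%) passed between mutant and WT cells by edgeR, against 1.49% higher and 0.461% lower among all genes. By that test 15 members (26.3%) had an unadjusted p under 0.05, against 18.4% of all genes. DESeq2 called 5, with 7.02% of the members higher and 1.75% lower, against 5.01% and 2.92% of all genes. The medians were 0.56 for the members and 0.07 for all genes, and 43 members were above 0; in log2 TPM the medians were -0.33 and -0.59. All 3 mutant 5-FU samples have a code with a leading zero and no WT 5-FU sample has one, so among these 6 libraries genotype and code writing cannot be told apart. With code writing as a covariate the median of the members was 0.069, with 32 above 0, and Edem1 and Creld2 were at 1.17 and 1.39. In that fit 2 members (3.51%) had an unadjusted p under 0.05 by edgeR, against 8.33% of all genes. The covariate takes its effect from the PBS libraries alone. There every library with a leading zero held more Jchain than every one without, so code writing and Jchain cannot be told apart. In CPM, 31 members (54.4%) were higher in all 3 mutant libraries than in all 3 WT libraries, against 21.5% of all genes, and 5 (8.77%) were lower in all, against 18.0%. The 5 were Canx, Ern1, Sec23b (a COPII coat subunit), Srp68 and Ssr1.

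Atf4 had 137, 126 and 121 CPM in mutant 5-FU libraries, against 56.4, 49.3 and 93.1 CPM in WT 5-FU libraries. The groups did not overlap, with a log2 fold change of 0.95 ± 0.25 (edgeR, adjusted p = 0.0567). Edem1 had 656, 392 and 191 CPM in mutant 5-FU libraries, against 79.6, 75.8 and 85.9 CPM in WT 5-FU libraries, which is 2.36 ± 0.63 on the log2 scale (edgeR, adjusted p = 0.0625). Creld2 had 329, 254 and 165 CPM in mutant 5-FU libraries, against 47.2, 41.4 and 63.6 CPM in WT 5-FU libraries, which is 2.30 ± 0.63 (edgeR, adjusted p = 0.0703). For both, the mutant library with the highest Jchain was the highest and the one with the lowest Jchain the lowest, and all were above the WT libraries. Hspa5 had 902, 1029 and 643 CPM in mutant 5-FU libraries, against 612, 598 and 859 CPM in WT 5-FU libraries, and its difference was 0.31 ± 0.40 with overlap (edgeR, adjusted p = 0.675). With log2 Jchain as a covariate, Edem1 was at -1.05 and Creld2 at -0.72, without passing, and the median of the members was -0.59, with 12 above 0. Plasma-cell markers moved with them: 6 of 10 were higher in the mutant (summed 33270 to 208600 CPM in mutant 5-FU libraries, against 349 to 2251 CPM in WT 5-FU libraries), as were 3 of 10 B-cell, 3 of 10 T and NK, 1 of 10 granulocyte and monocyte and 1 of 8 erythroid markers. Of 10 LSK and stem-cell markers 0 were higher and 2 lower in the mutant, Flt3 (-2.56 ± 0.29) and Cd34 (-1.67 ± 0.38), with summed levels of 1357 to 1684 CPM in mutant 5-FU libraries, against 1841 to 2209 CPM in WT 5-FU libraries. Their part in the difference was not tested. Of the 91 other pathway genes, Derl3 (6.04 ± 1.44) and Kdelr3 (5.89 ± 0.95) were higher and Vldlr, a lipoprotein receptor regulated by ATF4 (-1.38 ± 0.29), was lower. Among all genes 1.49% were higher and 0.461% lower.

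After PBS, no member passed the test between mutant and WT cells. None of 57 members (0%) passed by edgeR, against 0.0182% higher and 0.0% lower among all genes. By that test 1 member (1.75%) had an unadjusted p under 0.05, against 3.28% of all genes, and DESeq2 called 0. In CPM none of the members (0%) had groups that did not overlap, against 0.322% higher and 0.303% lower among all genes. The medians were -0.09 for the members and -0.02 for all genes, and 11 of 57 members were above 0. Ern1, with an RNase that splices Xbp1, had 18.3, 15.03, 27.5, 28.9 and 22.0 CPM in mutant PBS libraries, against 22.4, 21.9, 45.2, 48.2 and 28.6 CPM in WT PBS libraries, a difference of -0.57 ± 0.25 with overlap (edgeR, adjusted p = 1). The labels do not state that replicate numbers pair the PBS libraries. Matched by number, 6 members (10.5%) were lower in the mutant library of all 5 pairs, against 5.5% of all genes. They were Atf6, Ern1, Sec63, Spcs3, Ssr3 and Ssr4. By the same matching 1 (1.75%), Rpn1, was higher in all, against 5.47%. With the replicate block Ern1 (unadjusted p = 0.0202) and Sec63 (unadjusted p = 0.0389) had the adjusted p = 1 by edgeR. Sec63, a translocon partner that recruits BiP (-0.36 ± 0.19), and Atf6 (-0.31 ± 0.20) followed, and Hspa5 was at -0.23 ± 0.31 (0.18 without WT PBS replicate 4). Rpn1, an oligosaccharyltransferase subunit, and Sec61a1, the channel itself, lie 88.6 and 296.5 kb from Gata2 on chromosome 6 (GENCODE M21, GRCm38) and differed by 0.28 ± 0.22 and -0.19 ± 0.24, neither past the threshold.

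Across the 10 PBS libraries, many of these genes rose with Jchain when counts were scaled by TMM. With genotype in the model, 32 of 57 members (56.1%) rose with log2 Jchain and 1 (1.75%) fell, against 20.9% rising and 18.4% falling among the 14647 genes tested (edgeR quasi-likelihood test of the slope, adjusted over all genes). The median slope, in log2 units of the gene per log2 unit of Jchain, was 0.18 for the members and 0.00 for all genes. In log2 TPM the direction turned for most: 3 members (Ssr4, Spcs1 and Sec11c) rose (5.26%, against 1.3% of all genes) and 42 fell (73.7%, against 85%), while the median of all genes was -0.34, and 34 of 57 members lay above that median. When replicate numbers were added as a block, pairing PBS libraries of like Jchain level, 0 members passed by edgeR and the median slope was 0.25. Under the block 9 members (15.8%) had an unadjusted p under 0.05 by edgeR, against 5.24% of all genes. All genes gave 7 calls under that block. With the writing of the sample code as a covariate 10 passed, all rising (17.5%, against 1.56% of all genes). That covariate divides the PBS libraries by Jchain level, since every leading-zero library held more Jchain than the others.

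By role, with no test between roles, all 4 signal peptidase genes rose, as did 6 of 10 translocon, 4 of 7 SRP, 7 of 11 chaperone, 6 of 8 ERAD, 3 of 6 oligosaccharyltransferase, 1 of 4 isomerase, 1 of 4 stress and 0 of 3 ER exit genes. Ssr4 had 243, 371, 1260, 120 and 93.0 CPM in mutant PBS libraries, and 255, 381, 1312, 310 and 94.9 CPM in WT PBS libraries; its slope was 0.68 ± 0.07 (edgeR, adjusted p = 7.72e-05). In each genotype replicate 3, the library with the most Jchain, was the highest and replicate 5, with the least, the lowest. Spcs1 (0.67 ± 0.08; edgeR, adjusted p = 0.000102), Sec11c (0.54 ± 0.06; edgeR, adjusted p = 9.22e-05) and Spcs2 (0.37 ± 0.05; edgeR, adjusted p = 0.00022), all of the signal peptidase, followed that order at both ends. Dad1, a small oligosaccharyltransferase subunit (0.53 ± 0.07), Srp9, which holds up translation as part of the SRP (0.35 ± 0.05), and Sec61b, the beta subunit of the channel (0.56 ± 0.09), also rose by edgeR. Under the replicate block the slopes of Ssr4 and Spcs1 were 0.55 ± 0.30 and 0.34 ± 0.24. Those of Sec11c and Spcs2 were 0.62 ± 0.23 and 0.35 ± 0.21. Sec61b was at 0.32 ± 0.24 and Srp9 at 0.35 ± 0.165 there, Dad1 was at -0.12 ± 0.23, and none passed.

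Among folding and stress genes, Sdf2l1, a soluble partner of BiP and ERdj3, had 154, 237, 550, 125 and 79.0 CPM in mutant PBS libraries, and 179, 202, 494, 235 and 68.9 CPM in WT PBS libraries. Its slope was 0.49 ± 0.06 (edgeR, adjusted p = 0.000228). Manf had a slope of 0.40 ± 0.06, Edem1 of 0.47 ± 0.08 and Creld2 of 0.46 ± 0.09, all past the threshold by edgeR. Under the replicate block the slopes of Sdf2l1 and Manf were 0.43 ± 0.26 and 0.38 ± 0.26. Those of Edem1 and Creld2 were 0.82 ± 0.22 and 1.28 ± 0.37, and none passed. Edem1 levelled off: it had 507 and 574 CPM in mutant PBS replicates 2 and 3 and 485 and 476 CPM in WT PBS replicates 2 and 3, over Jchain levels of 23682 to 68575 CPM. Atf4 rose by 0.11 ± 0.04 (edgeR, adjusted p = 0.0324), and Ddit3 (0.12 ± 0.05; edgeR, adjusted p = 0.0512) lay just outside. With the block Atf4 was at 0.12 ± 0.20 and Ddit3 at 0.22 ± 0.23. These values and those of the 5-FU comparisons share the PBS libraries.

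Hspa5, several other abundant members and Hyou1, a low one, did not pass. Hspa5 had 806, 674, 508, 1045 and 787 CPM in mutant PBS libraries, and 874, 641, 457, 1758 and 746 CPM in WT PBS libraries, with a slope of -0.15 ± 0.09 (edgeR, adjusted p = 0.168). It was lowest in replicates 3 of both genotypes, where Jchain was highest, and its slope was 0.37 ± 0.22 under the replicate block and 0.052 with code writing as a covariate. Hyou1, the nucleotide exchange factor of BiP (-0.12 ± 0.08), Calr (0.07 ± 0.05), Canx (0.01 ± 0.05), Pdia3 (-0.05 ± 0.07), Rpn1 (-0.07 ± 0.06) and Sec61a1 (-0.05 ± 0.07) did not pass either. Srp68, an SRP scaffold, fell, with 112, 102, 59.3, 155 and 141 CPM in mutant PBS libraries, and 115, 92.3, 75.4, 133 and 124 CPM in WT PBS libraries (-0.18 ± 0.05; edgeR, adjusted p = 0.00713). Of the genes with the paired boxes, Creld2, Dnajc3, Hsp90b1 and Pdia6 rose, and Hspa5, Calr, Canx and Syvn1 did not pass.

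**Figure D4:**
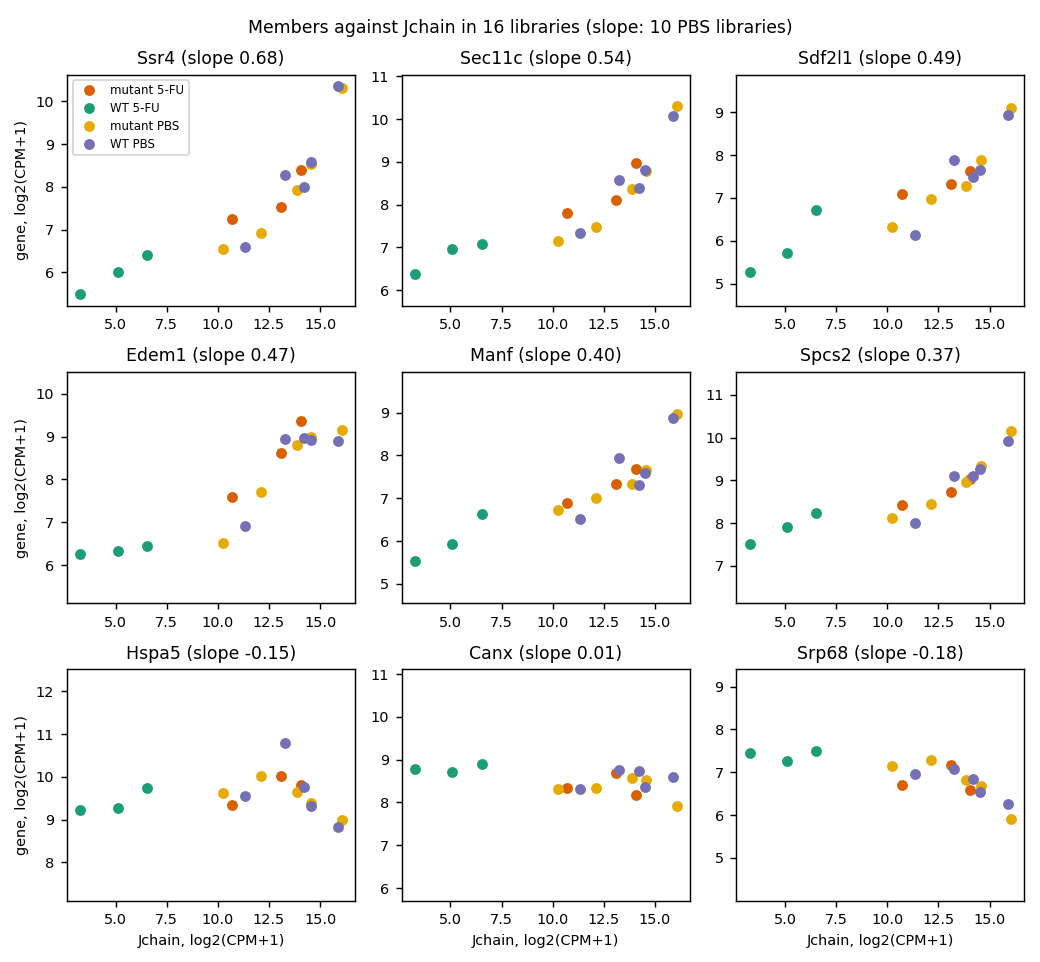
Level of 9 members against Jchain, both as log2(CPM+1) with TMM scaling, one point per library and one colour per group; every panel spans the same number of log2 units. Ssr4 (slope 0.68), Sec11c (0.54) and Sdf2l1 (0.49) climb with Jchain, Edem1 is flat among the WT 5-FU libraries and at the high end, and Hspa5, Canx and Srp68 do not climb.

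Transcript length moved with the slopes. Of 12 members with an effective length under 1000 bases 11 rose (median slope 0.39), against 21 of 45 longer ones (0.11). Spearman's rho between slope and effective length was -0.63 over the 57 members and -0.51 over all 14647 genes, as a description across genes that share libraries. After the trend over transcript length was removed from the counts, 34 members rose and 1 fell (edgeR), and rho over the members was -0.12. These were 59.6% and 1.75% of the members, against 12.7% rising and 9.94% falling among all genes. Manf, Sec61g, Srp14, Srp19 and Ssr2 were then no longer called, and Canx, Pdia4, Sec63, Srp72, Ssr1, Syvn1 and Tram1 were newly called. For 5-FU against PBS in WT cells the same correction gave 16 lower (28.1%, against 10% of all genes) and 0 higher (0%, against 7.51%), with Ddit3 and Edem3 no longer called.

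**Figure D5:**
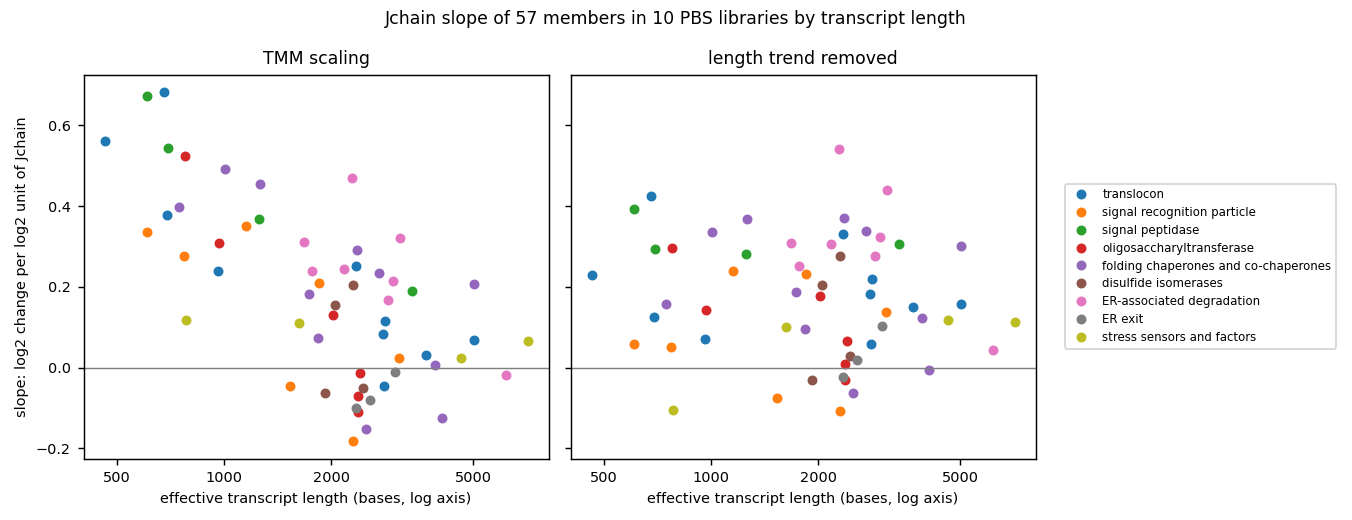
Jchain slope of the 57 members in 10 PBS libraries against effective transcript length (log axis), by role, with TMM scaling (left) and after the length trend was removed (right). Short transcripts have the steepest slopes on the left (rho -0.63), and the relation is weaker on the right (rho -0.12).

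Of the 91 other pathway genes, 40 rose and 14 fell with Jchain, against 20.9% rising and 18.4% falling among all genes. Derl3 (0.94 ± 0.07), Xbp1 (0.62 ± 0.06) and Fkbp2, an ER prolyl isomerase (0.59 ± 0.05), were among those that rose, and Sec24b, a COPII cargo adaptor (-0.32 ± 0.05), and Vcp, the ATPase that extracts ERAD substrates (-0.25 ± 0.07), among those that fell. All 9 plasma-cell markers other than Jchain rose by the same test, with 0.41 (Sdc1) as the lowest slope. So did 5 of 10 B-cell and 4 of 10 granulocyte and monocyte markers, but only 1 of 8 T and NK markers tested and 0 of 8 erythroid markers. Among the LSK and stem-cell markers Ly6a rose, and those that fell included Kit, Mecom and Meis1; Mpo fell among the granulocyte and monocyte markers. The part of each in the members' slopes was not tested. In the 6 libraries taken after 5-FU, with genotype in the model, no member passed (edgeR; 22, or 38.6%, had an unadjusted p under 0.05, against 6.16% of all genes), 52 of 57 slopes were above 0 and the median was 0.12, against 0.0036 for all genes; all 32 members that rose in PBS libraries had a slope above 0 there. Those 6 libraries had no part in the PBS fit. Ssr4 had a slope of 0.30 and Edem1 of 0.29 in them, and that of Hspa5 was 0.17. The share with a slope above 0 was not counted for all genes, nor for all genes that rose in PBS libraries. In the WT 5-FU libraries of this fit the gauge stood at only 8.54 to 91.5 CPM.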

How the data were processed

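RNA from 16 samples of sorted LSK cells was measured. Per the labels, the RNA came from the RNeasy Micro Kit and the library kit was NuGEN's Ovation Ultralow; RSEM 1.3.1, FastQC 0.11.2 and mm10/GRCm38 are named per the submitters' processing notes, with the aligner not given in the sources used here. Each sample's deposited table holds, per the file headers, RSEM expected counts (unscaled), TPM and FPKM by gene. FPKM values, which the authors deposited scaled to length and depth, entered no test; effective lengths served the length check.

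Expected counts were rounded to whole numbers, filtered (filterByExpr, minimum count 10) and scaled by TMM with edgeR 4.0.16 (R 4.3.3). Its quasi-likelihood F test, robust, used all 16 samples with 1 mean per group. The Jchain slope used the 10 PBS samples with genotype and log2(CPM + 1) of Jchain. P-values were Benjamini-Hochberg adjusted over all genes tested, threshold 0.05, and the SE was taken as the estimate over the root of F. Levels between genes are in TPM and those of 1 gene between libraries in CPM. The fits were tested on simulated data.

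The alternatives were other scalings and filters, DESeq2 1.42.0, limma 3.58.1 (limma-trend on log2(TPM + 1)), covariates, replicate left out and a replicate block; removal of the length trend, leaving out both PBS replicates 3 and the 6 libraries after 5-FU alone were added after seeing the data. PBS libraries with the same replicate number, a number from the titles, deviated together (correlations of 0.165, 0.243, 0.494, 0.342 and 0.569 over genes). The blocked slope is therefore given beside the unblocked one for the median and for several members. The members and lists were chosen with earlier results of these data known. The genes named are Hspa5 and, in each fit, the members past the threshold up to the 15 with the smallest p, or the 3 with the smallest p where fewer than 3 passed; others are named as descriptions, chosen after their values were seen.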

Additional observations from a re-analysis of the deposited data

Results flagged for a closer look

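Of 64 groups of 5 values examined (32 named genes in each PBS group), 5 values stood far from the rest of their group by the gap to the nearest value over the group's range, where chance flags about 1 in 20 groups. Edem1 was lowest in WT PBS replicate 5, at 119 CPM (ratio 0.965). Spcs3 was lowest in the same library, at 159 CPM (0.786). Syvn1 was lowest in mutant PBS replicate 5, at 32.5 CPM (0.728). Ddit3 was highest in mutant PBS replicate 3, at 38.8 CPM (0.765), and Srp54a was lowest there, at 50.1 CPM (0.729). Replicates 5 had the least Jchain of their groups and replicates 3 the most.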

How the results depend on the processing

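Of the 13 members called for 5-FU against PBS in WT cells, the count was 24 without both PBS replicates 3, 4 with code writing as a covariate, 26 with DESeq2, 24 with limma-trend on TPM (21 higher, 3 lower), 0 with Jchain as a covariate, 7 with no filter on low counts, 37 with the replicate block and 0 within the shared code prefix; with a replicate left out it ran from 1 to 27 (8 without mutant PBS replicate 1, 7 without WT 5-FU replicate 3, WT PBS replicate 1 or WT PBS replicate 2). For mutant against WT after 5-FU, with 0 called, the count was 21 in those groups alone, 3 without both PBS replicates 3, 5 with DESeq2 and 16 with the replicate block, and 0 to 3 with a replicate left out (3 without mutant PBS replicate 3, 2 without mutant PBS replicate 5 or WT PBS replicate 5, 1 without WT 5-FU replicate 3 or WT PBS replicate 3). The mutant's own response went from 0 to 1 with Jchain as a covariate (Spcs3), and the difference in response from 0 to 1 with DESeq2 and 2 with the replicate block. The 33 slope calls became 10 with code writing, 0 with the replicate block and 0 in the 6 libraries after 5-FU, and ran from 24 to 35 with a replicate left out. The replicate block changed no other count. Shares of all genes moved as well. For 5-FU in WT without both PBS replicates 3, 40.4% of the members and 12.6% of all genes were lower. With no filter on low counts these shares were 12.3% and 4.11%. Without WT PBS replicate 1 they were 12.3% and 7.24%, and without WT 5-FU replicate 3 they were 10.5% and 4.82%. For genotype after 5-FU in those groups alone, 36.8% of the members and 7.2% of all genes were higher. Without both PBS replicates 3 these shares were 5.26% and 4.44%, and without mutant PBS replicate 3 they were 5.26% and 2.27%. For the difference in response under the replicate block, 3.51% of the members and 1.9% of all genes were higher. For the mutant's own response with Jchain as a covariate, 1.75% and 1.5% were higher. For the slope with a replicate left out, 40.4 to 59.6% of the members and 12 to 19.8% of all genes rose. In comparisons with 5-FU libraries same-numbered libraries did not deviate together in all pairs. Correlations were 0.0144, -0.158 and 0.168 for 5-FU in WT, and 0.0562, 0.115 and 0.0203 for genotype after 5-FU. For 5-FU in the mutant they were 0.0635, -0.02 and -0.128, although the codes of replicates 1 and 2 share a prefix there. The block called 4 members higher and 33 lower for 5-FU in WT (all genes 21.2% and 23.2%). It called 16 higher for genotype after 5-FU (all genes 5.07% higher and 4.17% lower). The cause was not tested.

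Signs turned as follows. On TPM, whose all-gene median shifted as given above, they turned for Hspa5 (1.41 for 5-FU in WT, -0.64 for genotype after 5-FU, -0.63 for the difference in response), Sec63 (0.0285 for genotype after PBS), Atf4 (0.30), Ddit3 (0.19), Dnajc3 (0.47), Edem2 (0.45), Dnajb11 (0.47) and Syvn1 (0.46) for 5-FU in WT, and for the slopes of Spcs2 (-0.0876), Srp9 (-0.0730), Manf (-0.0896), Sec62 (-0.10), Ostc (-0.17), Derl1 (-0.20), Srp14 (-0.14) and Srp19 (-0.20). With Jchain as a covariate, 5-FU in WT gave 0.41 for Dnajb9, 0.55 for Herpud1, 0.0318 for Ddit3, 1.09 for Creld2, 1.48 for Edem1, 0.53 for Sel1l, 0.59 for Dnajc3, 1.55 for Manf, 1.01 for Edem2, 0.65 for Dnajb11 and 0.39 for Syvn1; genotype after 5-FU gave -1.05 for Edem1 and -0.72 for Creld2; the difference in response gave -0.90 for Edem1, -0.56 for Creld2 and -0.37 for Sel1l. Hspa5 turned under the replicate block (0.0628 for 5-FU in WT, 0.37 for the slope), code writing (slope 0.0524), the 6 libraries after 5-FU (slope 0.17) and without WT PBS replicate 4 (0.0356 for 5-FU in WT, 0.18 for genotype after PBS, where leaving out a replicate gave -0.39 to 0.18). The slope of Dad1 was -0.12 under the replicate block. Of the values of named genes, 554 of 640 with a replicate left out and 490 of 632 under other alternatives kept their direction and side of the threshold, 75 and 87 no longer passed, 9 and 16 newly passed, and 2 and 39 turned. Depth and 3 to 5 libraries a group limit low members such as Sec61g most.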
